A study of Mus musculus with 4 samples.

Results

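The glucocorticoid target genes described here are 10 genes: Fkbp5, Tsc22d3, Sgk1, Zbtb16, Ddit4, Pdk4, Cdkn1a, Klf9, Sult1a1 and the receptor gene Nr3c1. They were chosen by gene symbol, and all 10 were found among the 32285 genes of the count matrices. Their RNA was counted in single cells from the brains of C57BL6 mice, after a flow cytometry sort for CD31, which endothelial cells carry on their surface. The PLX5622 diet group ate chow with PLX5622 at 1200 ppm for 1 month, and the control diet group ate chow without it for the same 1 month. PLX5622 inhibits CSF1R, the receptor that microglia need to survive, and the study's stated purpose was to learn how loss of microglia affects brain vessels. Each diet has 2 droplet libraries, and 3 mice per diet were spread over them, so libraries pool animals and some animals may be in both libraries of their diet. The p-values for diet within a class of cells therefore measure only the spread between libraries. Comparisons between classes, and of diet effects between classes, set the library as a block. Their p-values measure the spread of class sums within libraries. No p-value measures the spread between mice. Age, sex and the hour of collection are not stated in the labels.

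Glucocorticoids cross the cell membrane and bind the glucocorticoid receptor, the product of Nr3c1, which waits in the cytosol in a complex with heat shock proteins and immunophilins. The bound receptor enters the nucleus and binds DNA, classically at a pair of inverted copies of a short half-site, and it raises some genes and, often through NF-kappaB and AP-1, lowers inflammatory ones. In brain endothelial cells this hormone is known for tightening the blood-brain barrier and for damping adhesion molecules. Several of the 10 genes also answer other signals, among them insulin, hypoxia, DNA damage and the circadian clock.

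Libraries kept 3989 and 3670 cells on the PLX5622 diet and 1696 and 5509 cells on the control diet, where a cell needed at least 1000 UMIs (unique molecular identifiers, 1 per captured RNA molecule), 500 detected genes and a mitochondrial share of no more than 10%. Of these 14864 cells, 13228 formed the endothelial-like class. All 10 endothelial markers were detected in it in each library, with summed levels between 20580 and 21201 CPM (UMIs scaled by the total of the class in the library). Over all barcodes the microglial gene Csf1r had 1 and 5 UMIs in the PLX5622 libraries and 253 and 57 UMIs in the control libraries, which checks the diet labels. Only 21 kept barcodes, summed over all pairs of libraries, occurred in more than 1 library. Endothelial-like cells were divided into arterial-like, arterial-side capillary-like, venous-side capillary-like and venous-like zones by marker genes, without using any of the 10 genes. Part of the venous-side capillary-like class, 1975 of its 5968 cells, has a weak mean marker score of 0.12, where the minimum was 0.1. The mural cells, the contractile cells that wrap the vessel wall, are bystanders of a CD31 sort and were few: 93 pericyte-like and 200 smooth muscle-like cells.

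Promoter sequences are shown for 3 of the genes, the only one with a complete receptor site and the pair that differed between diets. They are 250 bases upstream of a RefSeq transcript start on GRCm38.p6, written in the direction of transcription, with every half-site AGAACA or TGTTCT (the same motif on the other strand) in capitals.
Sgk1, chr10:21993640-21993889, plus strand: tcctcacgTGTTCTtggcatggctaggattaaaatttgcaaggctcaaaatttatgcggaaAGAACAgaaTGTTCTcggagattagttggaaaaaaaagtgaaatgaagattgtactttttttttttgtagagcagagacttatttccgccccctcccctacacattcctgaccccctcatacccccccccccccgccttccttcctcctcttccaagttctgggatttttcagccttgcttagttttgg
Sult1a1, chr7:126676419-126676668, minus strand: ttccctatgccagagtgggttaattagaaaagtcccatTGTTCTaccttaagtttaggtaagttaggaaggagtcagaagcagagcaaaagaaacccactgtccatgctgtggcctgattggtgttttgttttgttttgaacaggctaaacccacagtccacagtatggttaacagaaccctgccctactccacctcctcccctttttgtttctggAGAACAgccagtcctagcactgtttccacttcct
Pdk4, chr6:5496279-5496528, minus strand: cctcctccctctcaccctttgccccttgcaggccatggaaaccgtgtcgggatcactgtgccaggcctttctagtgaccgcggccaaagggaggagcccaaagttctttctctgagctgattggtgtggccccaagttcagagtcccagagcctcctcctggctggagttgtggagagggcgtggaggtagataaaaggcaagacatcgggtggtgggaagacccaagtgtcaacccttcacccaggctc

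The Sgk1 window starts inside the gene as GENCODE M21 draws it, at 1 of 6 Sgk1 start sites in the table. It holds the complete inverted site, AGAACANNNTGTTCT, whose first base lies at position -189 from the start, and a separate TGTTCT at position -242. The complete site occurs in 3 of 32851 promoter windows of this length, or 0.00913% of them. The Sult1a1 window holds a half-site at position -212 and another at position -34, on opposite strands. The Pdk4 window holds neither. A half-site alone is common, since 16.1% of all windows hold 1 or more. Among the 10 genes, 8 had windows in the table (16 windows in all), and 5 of those windows, from Tsc22d3, Sgk1 and Sult1a1, held a half-site. Zbtb16 and Nr3c1 had no entry. A match says only that the letters are there, and receptor binding was not measured.

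In endothelial-like cells the 10 genes did not move together between diets. Sult1a1, a cytosolic sulfotransferase that conjugates phenols and drugs, was higher on PLX5622, and Pdk4, a mitochondrial kinase that shuts pyruvate out of the citric acid cycle, was lower. The remaining 8 did not pass the test. The libraries of the diets did not overlap for 9 of the 10 genes: Tsc22d3, Sgk1, Pdk4, Cdkn1a, Klf9 and Nr3c1 were lower in both PLX5622 libraries than in both control libraries, Fkbp5, Zbtb16 and Sult1a1 were higher, and Ddit4 overlapped. Such separation is frequent with 2 libraries a side, since among the 12796 genes tested 25.9% lay lower and 15.1% higher without overlap.

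Sult1a1 had 33.7 and 41.7 CPM in the PLX5622 libraries and 21.2 and 24.0 CPM in the control libraries. Both PLX5622 libraries lay above both control libraries, by a log2 fold change of 0.76 ± 0.12 (SE; adjusted p = 0.0023, edgeR quasi-likelihood test with Benjamini-Hochberg adjustment over all genes tested, two-sided, n = 2 libraries a diet). It was called under all 16 alternative settings and omissions of a library, with a log2 fold change between 0.60 and 0.93. Sult1a1 (chromosome 7, 126672865 to 126676432, minus strand, GRCm38) overlaps Sgf29 on the opposite strand, and the sources used here do not say how counting treated strand. Sgf29 had 21.5 and 22.3 CPM in the PLX5622 libraries and 18.6 and 19.4 CPM in the control libraries, a log2 fold change of 0.24 ± 0.12 (adjusted p = 0.493).

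Pdk4 had 5.25 and 5.40 CPM (80 and 115 UMIs) in the PLX5622 libraries and 10.8 and 8.53 CPM (94 and 272 UMIs) in the control libraries. The PLX5622 libraries were nearly equal and both below the controls, with a log2 fold change of -0.78 ± 0.17 (adjusted p = 0.0351). This call rests on few UMIs and on both PLX5622 libraries: without PLX5622 library 1 the adjusted p was 0.0554, without PLX5622 library 2 it was 0.0727, and with DESeq2 it was 0.162.

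In all, 2 of the 10 genes were called, 1 in each direction, against 1.19% of all genes tested (152 of 12796, of which 102 were higher and 50 lower). When normalization factors were left out, 96 of the 178 called genes were higher, a share of 53.9% in place of 67.1%. The median log2 fold change of the 10 genes was -0.16, beside 0.0044 over all genes tested, and 5 of the 10 had an unadjusted p under 0.05, where 10.6% of all genes had.

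**Figure D1:**
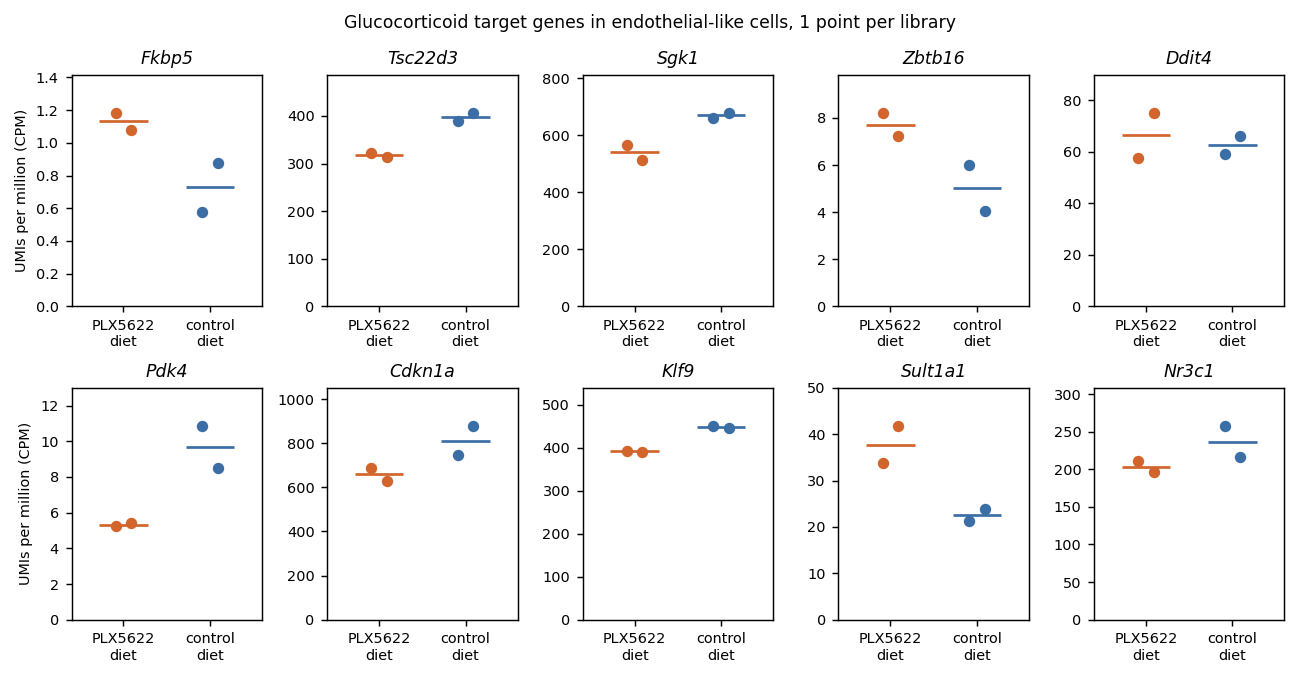
Level of each of the 10 genes in endothelial-like cells, in CPM, on a linear axis from 0. Each point is 1 library (PLX5622 diet left, control diet right) and each line the mean of 2 libraries; the diets overlap for Ddit4 alone, and Sult1a1 (33.7 and 41.7 against 21.2 and 24.0) and Pdk4 (5.25 and 5.40 against 10.8 and 8.53) are the genes that passed the test.

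The receptor gene Nr3c1 had 210 and 197 CPM in the PLX5622 libraries and 257 and 216 CPM in the control libraries. PLX5622 library 1 and control library 2 lay close together, and the log2 fold change of -0.16 ± 0.10 was not called (adjusted p = 0.616). Fkbp5 encodes an immunophilin that holds the receptor in its low-affinity state and is usually among the steepest responders to the hormone. Here it was near the limit of detection, with 18 and 23 UMIs in the PLX5622 libraries and 5 and 28 UMIs in the control libraries (1.18 and 1.08 CPM against 0.576 and 0.878 CPM). Its log2 fold change of 0.52 ± 0.41 (adjusted p = 0.718) leaves changes of either sign within the 95% interval of -0.28 to 1.33. Fkbp5 overlaps AC154912.5 on the same strand, a gene that is also in the count matrices. The part of this overlap in the low count of Fkbp5 was not tested.

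Tsc22d3, which encodes the anti-inflammatory leucine zipper protein GILZ, had 323 and 313 CPM in the PLX5622 libraries and 390 and 406 CPM in the control libraries. The libraries of each diet were close to each other, and the log2 fold change was -0.28 ± 0.11 (adjusted p = 0.326). Klf9, a zinc-finger transcription factor under both hormonal and circadian control, had 393 and 391 CPM in the PLX5622 libraries and 449 and 446 CPM in the control libraries. Its spread within a diet was small, and the log2 fold change of -0.15 ± 0.11 was not called (adjusted p = 0.701). Zbtb16, a transcriptional repressor, had 8.20 and 7.24 CPM in the PLX5622 libraries and 5.99 and 4.05 CPM in the control libraries. Its log2 fold change of 0.75 ± 0.20 was close in size to that of Sult1a1 and missed the threshold (adjusted p = 0.0848). It passed in 3 of the 16 alternatives, with limma-voom (adjusted p = 0.0425), with no low-count filter (adjusted p = 0.0106) and without control library 1 (adjusted p = 0.0019).

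Sgk1, a kinase that regulates ion channels and cell survival, had 564 and 514 CPM in the PLX5622 libraries and 661 and 677 CPM in the control libraries. The diets did not overlap, and the log2 fold change of -0.27 ± 0.12 was not called (adjusted p = 0.442). Cdkn1a, the cell cycle inhibitor p21 and also a p53 target, had 690 and 629 CPM in the PLX5622 libraries and 746 and 876 CPM in the control libraries. Control library 2 was the highest and the log2 fold change was -0.26 ± 0.13 (adjusted p = 0.525). Ddit4, an inhibitor of mTORC1 that hypoxia and amino acid shortage also raise, had 57.7 and 75.0 CPM in the PLX5622 libraries and 59.2 and 66.3 CPM in the control libraries. Both PLX5622 values lay outside the control range, on opposite sides of it, and the log2 fold change was 0.12 ± 0.12 (adjusted p = 0.81).

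Without control library 1, which has the fewest cells, 6 of the 10 genes were called. Tsc22d3 (adjusted p = 0.00813), Sgk1 (0.0204), Cdkn1a (0.00149) and Zbtb16 then joined Pdk4 and Sult1a1, while 538 genes were called in all. Sult1a1 and Pdk4 remained the only ones called without control library 2, where 576 genes were called, and Sult1a1 alone was called without either PLX5622 library. Where a single library is left out, 1 diet has a lone library, which is assumed to vary like those of the other diet.

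**Figure D2:**
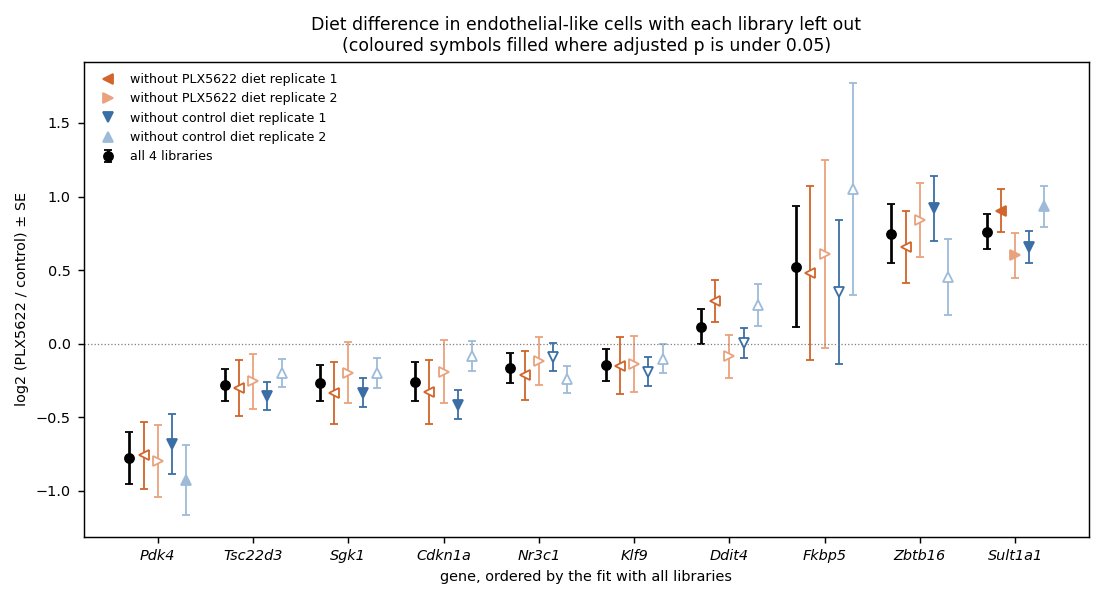
Log2 fold change between diets (PLX5622 over control) in endothelial-like cells for each gene, with its SE, using all 4 libraries (black) and with each library left out (colours, filled where the adjusted p is under 0.05). Sult1a1 is filled in all 4 omissions, and Tsc22d3, Sgk1, Cdkn1a and Zbtb16 are filled only without control library 1.

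Markers of other cells in the endothelial-like sums also differed between diets. The 11 pericyte markers summed to 324 and 282 CPM in the PLX5622 libraries and to 223 and 222 CPM in the control libraries, on average 0.643% of their level in pericyte-like cells. Smooth muscle markers summed to 21.1 and 28.9 CPM against 21.1 and 16.6 CPM in controls, with 1 of 11 at 0. The 6 markers of fenestrated endothelium summed to 73.6 and 79.9 CPM in the PLX5622 libraries and 125 and 133 CPM in the control libraries, and the 19 fenestrated-like cells all came from control libraries. Sult1a1 and Pdk4 were still called when those 19 cells were left out. The 12 microglial markers summed to between 23.9 and 28.6 CPM in all 4 libraries, with overlap between diets. Both capillary-like zones also overlapped. PLX5622 libraries lay lower in arterial-like cells (22.5 and 28.6 against 28.9 and 29.9 CPM) and in venous-like cells (23.8 and 24.3 against 26.4 and 24.5 CPM). Of these markers, C1qa had 0 UMIs over all barcodes of either PLX5622 library. What cells the sum came from was not tested. Erythroid markers summed to 170 and 126 CPM in the PLX5622 libraries and 195 and 192 CPM in the control libraries, while in the arterial-side capillary-like, venous-side capillary-like and venous-like zones both PLX5622 libraries lay above both control libraries. The endothelial-like class includes 100 droplets whose cluster carries erythroid RNA and which belong to no zone. Without them Sult1a1 and Pdk4 were called as before (adjusted p = 0.00226 and 0.0325). Choroid plexus markers summed to 37.5 and 46.6 CPM against 49.3 and 125 CPM in controls. Astrocyte markers lay between 66.5 and 80.0 CPM, with overlap between diets. The part that RNA of these other cells has in the results was not tested.

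The diet difference of Sult1a1 was positive in each of the 4 zones. Venous-side capillary-like cells had 40.0 and 49.4 CPM in the PLX5622 libraries and 27.2 and 26.4 CPM in the control libraries, a log2 fold change of 0.79 ± 0.13 (adjusted p = 1.1e-06). Arterial-side capillary-like cells had 26.0 and 29.1 CPM in the PLX5622 libraries and 11.9 and 18.6 CPM in the control libraries. Venous-like cells had 36.2 and 45.2 CPM against 22.9 and 26.8 CPM in controls, and arterial-like cells 27.5 and 38.7 CPM against 19.0 and 23.3 CPM in controls. In each zone both PLX5622 libraries lay above both control libraries, and the venous-side capillary-like cells alone passed the test. The log2 fold changes in the other zones were 0.75 ± 0.19 (adjusted p = 0.0794), 0.69 ± 0.18 (0.0542) and 0.63 ± 0.20 (0.231) in the same order.

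Pdk4 was called in venous-side capillary-like cells, at 4.50 and 5.39 CPM in the PLX5622 libraries and 13.1 and 8.26 CPM in the control libraries (log2 fold change -0.94 ± 0.26, adjusted p = 0.0209). DESeq2 and limma-voom did not call it there. In that zone pericyte markers summed to 273 and 247 CPM in the PLX5622 libraries and 173 and 198 CPM in the control libraries, and erythroid markers to 62.9 and 74.4 CPM against 26.0 and 33.2 CPM in controls. Their part in the Sult1a1 and Pdk4 values of the zone was not tested. Arterial-side capillary-like cells had 7.71 and 3.99 CPM against 11.9 and 11.0 CPM in controls, a difference of similar size that was not called (-0.96 ± 0.29, adjusted p = 0.177). In venous-like cells the diets overlapped, at 4.25 and 5.81 CPM against 5.71 and 6.07 CPM in controls. Each of these zone values rests on between 8 and 97 UMIs a library.

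Venous-side capillary-like cells, the zone with the most cells (5968), thus had 2 genes called of 9 tested, where 2.11% of all genes were called. In arterial-like, arterial-side capillary-like and venous-like cells edgeR called 0 of 9, where 0.455%, 0.756% and 0.926% of all genes were called. An unadjusted p under 0.05 was found there for 4 of the 9 in arterial-like cells (7.01% of all genes), 2 in arterial-side capillary-like cells (8.67%) and 4 in venous-like cells (8.73%), and neither DESeq2 nor limma-voom called any. Tsc22d3 in venous-like cells came closest after Sult1a1, at 332 and 335 CPM in the PLX5622 libraries and 458 and 434 CPM in the control libraries (log2 fold change -0.39 ± 0.11, adjusted p = 0.0895). Fkbp5 was too low to be tested in any single zone.

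These zone calls moved with single libraries. The number of all genes called in a zone moved as well, over the ranges given in the closing section. A call gained or lost under an omission is therefore not particular to these genes. Without control library 1, Sgk1 and Cdkn1a were called in arterial-like cells, Pdk4 and Cdkn1a in arterial-side capillary-like cells, Tsc22d3 and Cdkn1a in venous-like cells, and Tsc22d3, Sgk1, Zbtb16, Cdkn1a and Sult1a1 in venous-side capillary-like cells. Without control library 2, Sult1a1 was also called in arterial-side capillary-like and venous-like cells, and Tsc22d3 in venous-like cells. Without PLX5622 library 1, Pdk4 and Sult1a1 were called in arterial-side capillary-like cells, and Sult1a1 alone in venous-side capillary-like cells. Without PLX5622 library 2, none of the 9 genes was called in any zone by edgeR.

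Whether the diet difference itself varied between zones was tested in 1 model with the library as a block. Of the 9 genes tested edgeR called 0, where 0.447% of 11405 genes were called, and neither DESeq2 nor limma-voom called any. Ddit4 alone had an unadjusted p under 0.05 (adjusted p = 0.537), as had 5.94% of all genes. Venous-like cells had 81.5 and 99.9 CPM of Ddit4 in the PLX5622 libraries and 81.4 and 68.5 CPM in the control libraries, and arterial-like cells had 49.6 and 70.3 CPM against 52.8 and 67.9 CPM in controls. The difference between the 2 diet effects, arterial-like minus venous-like, was -0.42 ± 0.16 on the log2 scale. For Sult1a1 the same difference was -0.06 ± 0.23, with a 95% interval of -0.50 to 0.38.

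**Figure D3:**
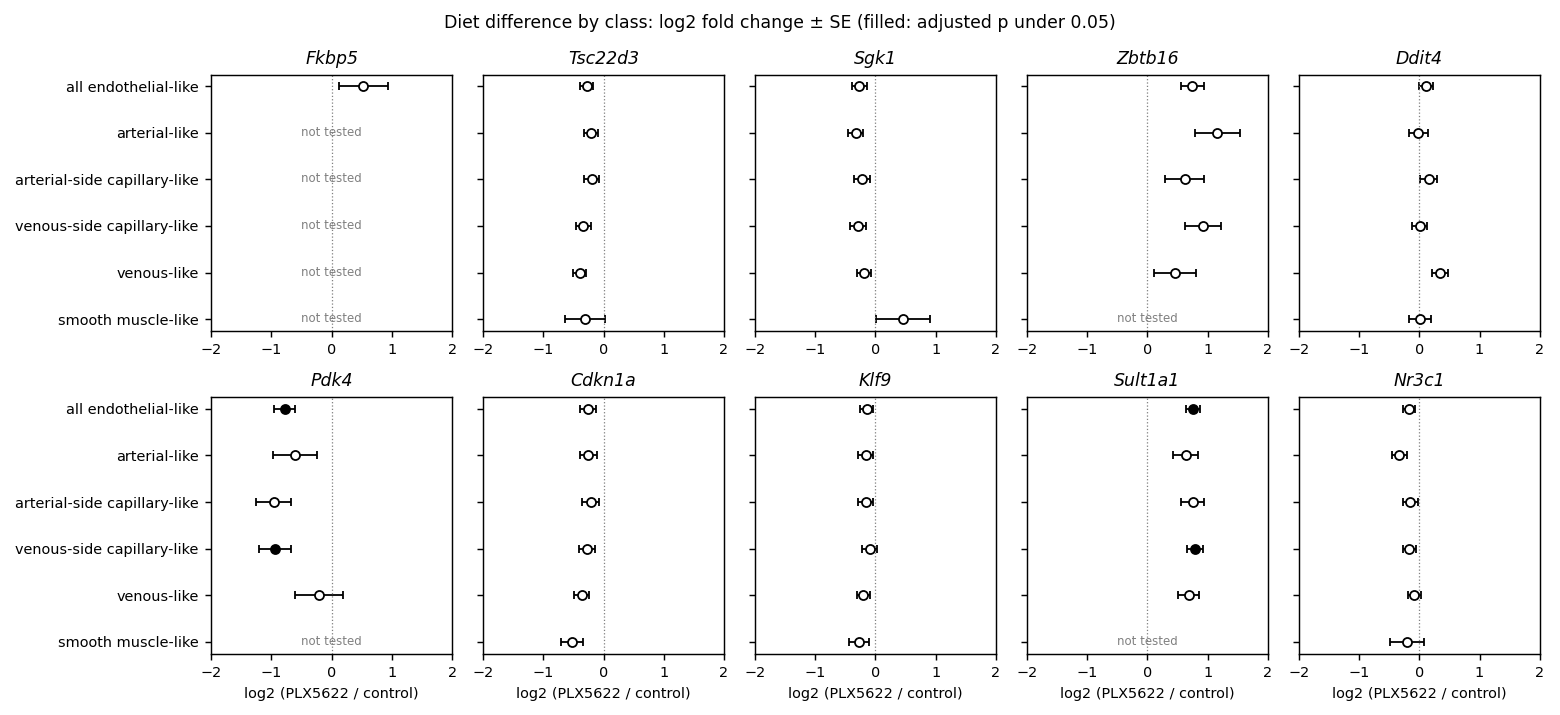
Log2 fold change between diets (PLX5622 over control, x axis) with its SE for each gene in all endothelial-like cells, the 4 zones and smooth muscle-like cells (y axis). Filled points passed the test, which are Sult1a1 and Pdk4 in all endothelial-like and in venous-side capillary-like cells; genes too low for a test are marked.

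Smooth muscle-like cells allowed a diet test of 6 of the 10 genes. EdgeR called 0 of them, where 0.0531% of all genes were called (3 of 5653), 1 had an unadjusted p under 0.05 (4.71% of all genes), and the other 2 tools called none. That gene was Cdkn1a, with 553 and 692 CPM in the PLX5622 libraries and 703 and 1099 CPM in the control libraries (log2 fold change -0.52 ± 0.18, adjusted p = 0.80). It was called without control library 1. Zbtb16 had 6 and 7 UMIs in PLX5622 libraries against 1 and 1 in controls, Sult1a1 had 6 and 8 against 2 and 2, and Pdk4 had 5 and 11 against 1 and 6. For Pdk4 this is the opposite side from the endothelial-like cells, and the difference between smooth muscle-like cells and the mean of the zones in their diet effects was 1.87 ± 0.68 on the log2 scale (adjusted p = 0.318). None of the 10 genes was called in that test with all libraries by edgeR, DESeq2 or limma-voom, where 0.401% of 12207 genes were called by edgeR and 2 of the 10 had an unadjusted p under 0.05, beside 7.59% of all genes. Cdkn1a was called in it without control library 1 and without PLX5622 library 2. Pericyte-like cells, with 35 and 20 cells in the PLX5622 libraries and 8 and 30 in the control libraries, fell short of the 20 cells a library set for a diet test.

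Apart from diet, several of the genes differed in level along the vascular tree. Pdk4 and Zbtb16 were called in no contrast between zones, and Fkbp5 was too low to be tested. The 6 classes were compared within libraries in 1 model, and levels are given as the mean over 4 libraries with the SD. Ranked by mean, neighbouring zones had ranges over the 4 libraries that overlapped for every gene but Klf9, and the tests compare classes within each library.

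Sgk1 was highest in arterial-side capillary-like cells (780 ± 88 CPM), followed by arterial-like (624 ± 89 CPM), venous-side capillary-like (533 ± 74 CPM) and venous-like cells (480 ± 54 CPM). This order held in all 4 libraries at each step. The log2 difference was 0.55 ± 0.04 between arterial-side and venous-side capillary-like cells and 0.39 ± 0.05 between arterial-like and venous-like cells, and both passed the test. Smooth muscle-like cells had 28.1 ± 5.8 CPM, below every zone in every library.

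Sult1a1 was lowest among zones in arterial-side capillary-like cells (21.4 ± 7.7 CPM) and highest in venous-side capillary-like cells (35.7 ± 11.0 CPM), with arterial-like (27.1 ± 8.5 CPM) and venous-like cells (32.7 ± 10.0 CPM) between. The log2 difference between arterial-side and venous-side capillary-like cells was -0.68 ± 0.10 (adjusted p = 5.1e-10), while arterial-like and venous-like cells did not differ beyond the test (-0.25 ± 0.12, adjusted p = 0.105). Ddit4 was likewise lower on the arterial side of the capillaries, at 47.7 ± 6.4 CPM against 68.8 ± 9.6 CPM on the venous side (log2 difference -0.55 ± 0.07), and was also lower in arterial-like than in venous-like cells (-0.38 ± 0.08). Cdkn1a (0.28 ± 0.05) and Klf9 (0.27 ± 0.04) were higher on the arterial side of the capillaries.

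Tsc22d3 and Nr3c1 were both lower in arterial-like than in venous-like cells. Tsc22d3 had 304 ± 29 CPM in arterial-like and 390 ± 66 CPM in venous-like cells (-0.34 ± 0.05), and Nr3c1 had 213 ± 34 CPM and 265 ± 18 CPM (-0.32 ± 0.05). Nr3c1 was higher in venous-like cells than in venous-side capillary-like cells (0.31 ± 0.05), while the other 3 zones lay between 209 and 213 CPM. In all, the arterial-like against venous-like contrast called 4 of 9 genes, where 29.2% of 11669 genes were called. The capillary contrast called 5 of 9, where 14.6% were called. Arterial-like against arterial-side capillary-like cells called 4 of 9, where 18.4% were called, and venous-like against venous-side capillary-like cells 3 of 9, where 15.7% were called. Pdk4 (3.99 to 13.1 CPM over zones and libraries) and Zbtb16 (3.07 to 10.1 CPM) were called by edgeR in none of these 4 contrasts.

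**Figure D4:**
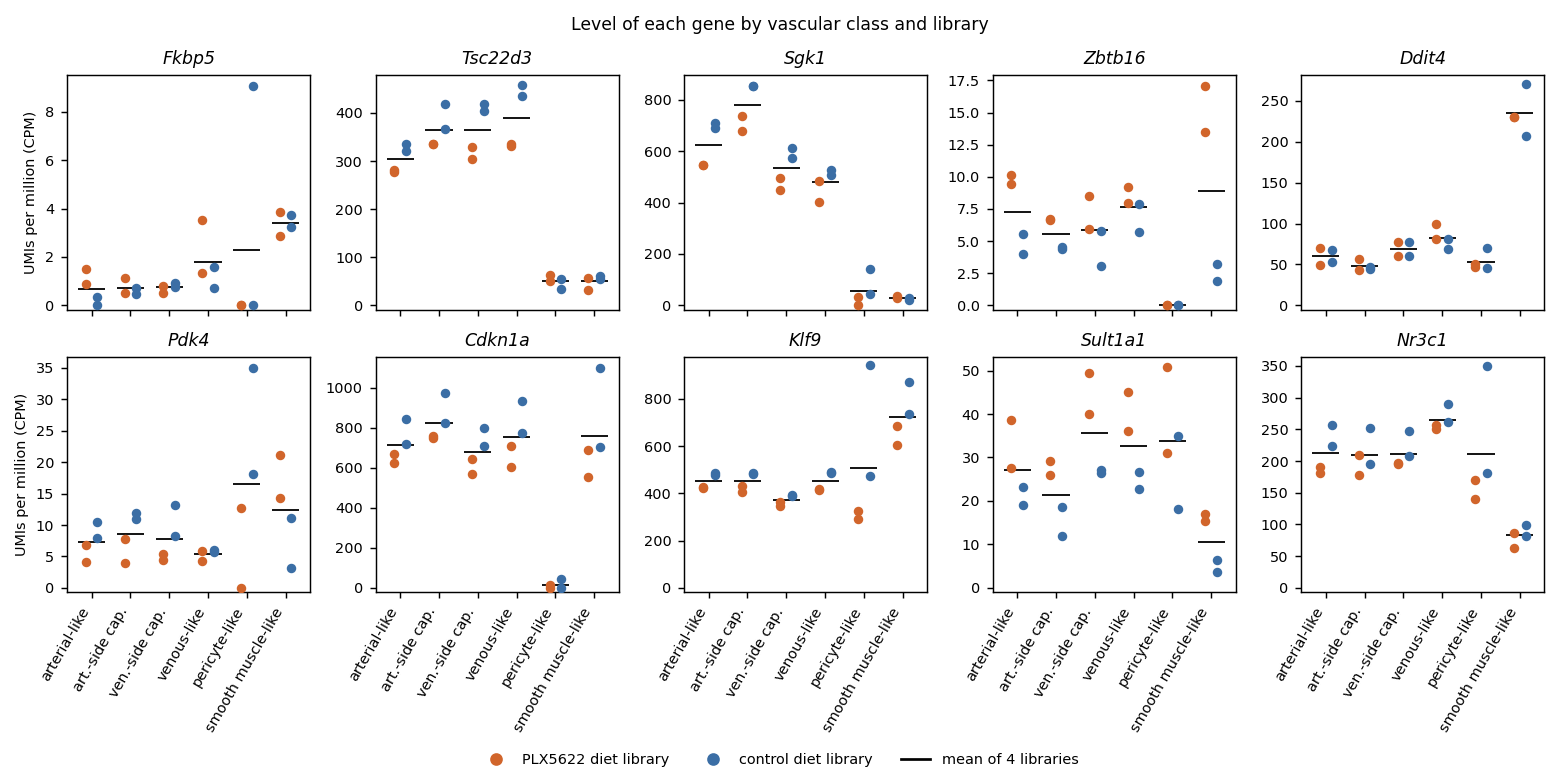
Level of each gene, in CPM on a linear axis, in the 4 endothelial-like zones, pericyte-like and smooth muscle-like cells. Each point is a library (PLX5622 diet left, control diet right within a class) and each line the mean of 4 libraries; Sgk1 and Tsc22d3 are low in both mural classes, Cdkn1a in pericyte-like cells alone, and Ddit4 is highest in smooth muscle-like cells.

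Mural cells separated the genes more than the zones did. Most smooth muscle-like cells had a mitochondrial share above 5%. At or below it were 8 of 55 and 13 of 57 cells in the PLX5622 libraries. In the control libraries these were 6 of 34 and 12 of 54 cells. In smooth muscle-like cells Ddit4 had 235 ± 27 CPM, above every zone in each library (log2 difference from the mean of zones 1.91 ± 0.10), and Klf9 had 723 ± 112 CPM (0.81 ± 0.06). Pdk4 was also called higher there (0.99 ± 0.37, from 23 UMIs in all), at 14.2 and 21.1 CPM in the PLX5622 libraries and 3.22 and 11.2 CPM in the control libraries. The control mean of 7.19 CPM was not above the control means of the zones, which lay between 5.89 and 11.4 CPM. Tsc22d3 (-2.66 ± 0.12), Sgk1 (-4.33 ± 0.13), Nr3c1 (-1.34 ± 0.11) and Sult1a1 (-1.42 ± 0.30) were lower, and Cdkn1a differed little (0.14 ± 0.06). Together 8 of 9 genes were called, where 54.8% of all genes were called, in a contrast added after the other contrasts had been set. The endothelial markers in smooth muscle-like cells stood at 1.87% of their endothelial level, beside 4.59% for Sgk1 and 14.6% for Tsc22d3. The part of RNA from endothelial cells in these levels was not tested.

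Pericyte-like cells held 281820 UMIs in all, so their values are coarse, and endothelial markers stood at 5.02% of their endothelial level in them. Cdkn1a had 6 UMIs, 2.81% of its level over the zones, or 21.3 CPM with an exact 95% Poisson interval of 7.81 to 46.3 CPM. Sgk1 had 11 UMIs (6.42% of the zone level) and Tsc22d3 had 15 UMIs (14.7%). The part of RNA from endothelial cells in these levels was not tested. Zbtb16 had 0 UMIs, which allows up to 10.6 CPM and so does not set it apart from the zones. Nr3c1 had 52 UMIs, or 185 CPM with an exact 95% Poisson interval of 138 to 242 CPM for counting error alone. That interval spans the 215 CPM of the pooled zones, and single libraries ran from 140 to 350 CPM. The test called Nr3c1 lower in pericyte-like cells than in the mean of zones (-0.69 ± 0.19, adjusted p = 0.0024). Klf9 had 123 UMIs, at 292 and 326 CPM in the PLX5622 libraries and 944 and 473 CPM in the control libraries, which lie on both sides of the 422 CPM of the pooled zones. The test called Klf9 lower in pericyte-like cells (-0.42 ± 0.14, adjusted p = 0.0111), but that direction flipped to 0.03 ± 0.14 without normalization factors. The pericyte-like contrast called 5 of 9 genes, where 32.2% of all genes were called. These were Tsc22d3, Sgk1, Cdkn1a, Klf9 and Nr3c1, each lower. Smooth muscle-like against pericyte-like cells called 3 of 9, where 19.2% were called: Cdkn1a (5.74 ± 0.33), Ddit4 (2.72 ± 0.31) and Klf9 (1.23 ± 0.14) were higher in smooth muscle-like cells.

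Likeness to other genes is given for the members with the highest and the lowest diet fold change, Sult1a1 and Pdk4, and for the receptor gene, over the 24 library-by-class sums and among 6651 genes with a mean of at least 20 CPM. These sums share libraries and classes, so the values only describe likeness. Sult1a1 was most like Adm (Pearson r = 0.81), Hacd3 (0.80) and Katnbl1 (0.78). Pdk4 was most like Qars (0.84), Klhdc3 (0.83) and Nanos1 (0.82). Nr3c1 was most like Klhl5, Pxk and Shroom4 (each 0.93).

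The rest of the pathway was read from lists of genes, in endothelial-like cells. These lists were chosen with earlier results of these data known, so their counts and medians describe the pathway and do not test it. Of the receptor's own machinery (chaperones, immunophilins and cofactors), 0 of 13 tested genes passed under edgeR, where 1.19% of all genes did. An unadjusted p under 0.05 was found for 3 of them, beside 10.6% of all genes. DESeq2 called 0 and limma-voom 1, Fkbp4, the immunophilin that helps carry the receptor to the nucleus. Fkbp4 had 170 and 146 CPM in the PLX5622 libraries and 114 and 127 CPM in the control libraries (log2 fold change 0.43 ± 0.11, adjusted p = 0.0695). The cochaperones Ptges3 (0.30 ± 0.10, adjusted p = 0.240), Stip1 (0.65 ± 0.24, 0.445) and the chaperone Hsp90ab1 (0.30 ± 0.15, 0.50) had positive values that did not pass. The list's median was 0.08, beside 0.0044 for all genes.

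Of 24 tested genes that glucocorticoids are known to raise in other settings, 3 were higher and 0 lower, where 0.797% of all genes were called higher and 0.391% lower. Cebpd, a transcription factor of the acute phase, had 190 and 197 CPM in the PLX5622 libraries and 95.5 and 104 CPM in the control libraries, a log2 fold change of 0.99 ± 0.10 (adjusted p = 2.3e-05). The alkaline ceramidase gene Acer2 (0.69 ± 0.09, adjusted p = 0.000489) and the xanthine dehydrogenase gene Xdh (0.45 ± 0.11, adjusted p = 0.0467) were the other two. The clock gene Per1, a textbook receptor target, had 94.4 and 86.4 CPM in the PLX5622 libraries and 122 and 114 CPM in the control libraries (-0.34 ± 0.09, adjusted p = 0.103). The list's median was -0.02. Cebpd, Acer2 and Xdh were also called by DESeq2 and limma-voom.

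Of 8 tested genes that glucocorticoids are known to lower, 4 were higher on PLX5622 and 0 lower, with a median of 0.89. Among all genes tested, 0.797% were called higher and 0.391% lower. Ptgs2, the inducible cyclooxygenase, had 33.0 and 36.4 CPM in the PLX5622 libraries and 10.1 and 13.1 CPM in the control libraries (1.55 ± 0.13, adjusted p = 3.1e-06). The chemokine Cxcl1 (0.79 ± 0.11, adjusted p = 0.000666) and the cytokine Csf1 (0.73 ± 0.13, adjusted p = 0.0146) also rose. The adhesion molecule Sele had 23 and 45 UMIs in the PLX5622 libraries and 1 and 0 UMIs in the control libraries. All these genes are also targets of inflammatory signals.

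Glucocorticoid release itself follows the circadian clock. Of 14 clock genes tested, 3 were lower on PLX5622 and 0 higher, with a list median of -0.30. Among all genes tested, 0.391% were called lower and 0.797% higher. Nr1d1, which encodes the nuclear receptor REV-ERB alpha, had 62.2 and 74.4 CPM in the PLX5622 libraries and 130 and 100 CPM in the control libraries (-0.69 ± 0.11, adjusted p = 0.0031). Its paralogue Nr1d2 (-0.64 ± 0.11, adjusted p = 0.00463) and the clock repressor Ciart (-0.62 ± 0.09, adjusted p = 0.00128) moved likewise. The labels give no hour of collection, so diet and hour cannot be told apart.

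P53 and the integrated stress response also reach Cdkn1a and Ddit4. EdgeR called 0 of 10 p53 targets, with 1 at an unadjusted p under 0.05, and 0 of 6 integrated stress response genes, also with 1; DESeq2 and limma-voom called none in either list. With 1.19% of all genes called, lists of this length would often hold no call, and 10.6% of all genes had an unadjusted p under 0.05. The p53 target with the smallest p was Trp53inp1 (-0.37 ± 0.10, adjusted p = 0.109), and Mdm2, the p53 ubiquitin ligase, had -0.11 ± 0.09 (adjusted p = 0.737). Trib3, a pseudokinase raised by stress, had 0.39 ± 0.16 (adjusted p = 0.367). Among 12 immediate early and heat shock genes, which cell dissociation itself can raise, Hspa1b alone was called (0.52 ± 0.11, adjusted p = 0.0219), and the list's median was -0.15.

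RNA outside cells, read from barcodes under 100 UMIs, also held the members. Sult1a1 there had 33.0 and 41.1 CPM in the PLX5622 libraries and 20.8 and 29.7 CPM in the control libraries. Sgk1 stood between 119% and 135% of its endothelial level, Tsc22d3 between 106% and 128%, Cdkn1a between 85.7% and 91.0%, and Klf9 between 59.6% and 69.2%.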

How the data were processed

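The authors deposited raw counts, 1 table of UMI counts per gene and barcode for each of the 4 libraries, as the headers of the files and their integer values show. Libraries were made with the 10x Genomics 3' v3.1 kit, per the labels' protocols. The submitters' processing notes name Cell Ranger 6.0.1 and Seurat 4.0 and the builds mm10 and mm39, without saying what each was used for.

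Cells passing the limits stated above were clustered with scanpy 1.11.5 (2000 variable genes, 30 components, 15 neighbours, Leiden resolution 0.5), and endothelial-like cells again with 20 components after centring each library, without the members and pathway lists. Names of non-endothelial classes rest on at least 3 markers. The endothelial-like name rests on the summed level of its markers, and zone names on the highest mean marker score above 0.1. Scrublet called 4 cells doublets, so it has not worked, and doublets were kept. Left out of the comparisons were 200 pericyte and 27 smooth muscle droplets mixed with endothelial RNA, 409 cells of unnamed clusters, and the astrocyte, erythroid, fibroblast and immune clusters. The endothelial-like class holds the 4 zones and also 248 cells of no zone, 100 droplets with erythroid RNA and 19 fenestrated-like cells. Counts were summed per library and class and tested with edgeR 4.0.16 (R 4.3.3; TMM, filterByExpr, robust quasi-likelihood, Benjamini-Hochberg over all genes tested, threshold 0.05, two-sided), with DESeq2 1.42.0 and limma-voom (limma 3.58.1) as alternatives. CPM are UMIs over the class total of the library. The 4 libraries held 19044018 and 26949278 UMIs on PLX5622 and 11186648 and 38600208 on the control diet. In simulated data for the endothelial comparison, 12761 genes were tested, and every gene was given the same dispersion (spread beyond counting error). Of genes changed 1.5-fold 46.2% were recovered, of those changed 2-fold 82.1%, and of those changed 4-fold 96.9%. Real genes differ in that spread, so these shares may not hold for a single gene.

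The members and lists were chosen with earlier results of these data known. All members were named, and of each list up to 4 genes with the smallest p in the endothelial comparison. Gene positions come from GENCODE M21 (32158 of 32285 identifiers matched), promoter sequences from RefSeq, which had windows for 8 of the 10 members. Poisson intervals and the limit of 3 counts that a count of 0 allows cover counting error only.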

Additional observations from a re-analysis of the deposited data

How the results depend on the processing

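Each of the 10 genes kept its direction between diets in endothelial-like cells under all 16 alternatives, except Ddit4, which kept it in 15. Over every comparison, 1416 of the values recomputed for a single gene kept their call or moved by less than their SE, 32 lost and 52 gained a call, 73 moved further, and 1 reversed: Klf9 in pericyte-like cells minus the mean of zones gave 0.03063 on library totals without normalization factors. The cause was not tested.

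The replicate numbers do not pair the libraries as far as the data show (r = 0.044 between deviations of same-numbered libraries over 12796 genes), and with a replicate block 216 genes and 2 members were called in endothelial-like cells, 109 genes and 1 member in arterial-like cells, 179 genes and 2 members in venous-like cells and 0 genes in smooth muscle-like cells. With the members' counts in brackets, leaving out 1 library gave 170 to 576 genes (1 to 6) in endothelial-like, 21 to 126 (0 to 2) in arterial-like, 62 to 308 (0 to 2) in arterial-side capillary-like, 79 to 301 (0 to 5) in venous-side capillary-like, 33 to 218 (0 to 2) in venous-like and 2 to 13 (0 to 1) in smooth muscle-like cells, and 23 to 59 (0 to 1) in the test of smooth muscle against zones.

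DESeq2 called 1 member in endothelial-like cells, 12 genes in arterial-like, 24 in arterial-side capillary-like, 64 (1 member) in venous-side capillary-like, 50 in venous-like and 0 in smooth muscle-like cells, and 13 genes in the test of diet by zone, 30 in that of smooth muscle against zones, 1076 in the capillary contrast and 1186 in venous-like against venous-side capillary-like cells. Limma-voom called 28 genes in arterial-like cells, 1 member in venous-side capillary-like cells, 1 gene in smooth muscle-like cells, 22 genes in the test of smooth muscle against zones, 2225 genes in arterial-like against venous-like, 1186 in arterial-like against arterial-side capillary-like, 700 in the capillary contrast, 785 in venous-like against venous-side capillary-like, 6679 in pericyte-like against zones and 5737 (5 members) in smooth muscle-like against pericyte-like cells.

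With no low-count filter 352 genes were called in endothelial-like (3 members), 149 (1) in arterial-side capillary-like, 147 (1) in venous-like and 9 in smooth muscle-like cells. With at most 5% mitochondrial UMIs 157 genes (1 member) were called in venous-side capillary-like, 2 members in venous-like and 0 genes in smooth muscle-like cells, 18 genes in the test of smooth muscle against zones, 974 in smooth muscle-like against pericyte-like cells and 3561 (5 members) in smooth muscle-like cells against zones. That limit left 8 and 13 smooth muscle-like cells in the PLX5622 libraries and 6 and 12 in the control libraries. It left 23 and 12 pericyte-like cells in the PLX5622 libraries and 6 and 13 in the control libraries. Every smooth muscle-like sum then fell short of the 20 cells set for a diet test. Without high doublet scores 22 genes were called in arterial-like cells and 1 member in venous-side capillary-like cells. Without normalization factors 7 genes were called in smooth muscle-like cells, 1 member in venous-like cells, 5 members in venous-like against venous-side capillary-like cells and 3 in pericyte-like cells against zones. At the higher clustering resolution 1 member was called in arterial-side capillary-like cells and 5 in venous-like against venous-side capillary-like cells. Omitting the fenestrated-like cells (135 genes) or the droplets with erythroid RNA (160 genes) and adding the low-UMI cluster (142 genes) were chosen after seeing the data. Depth limits the values of Fkbp5 in every class and those of Pdk4, Zbtb16 and Sult1a1 in mural cells, which rest on few UMIs.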
